A study of Mus musculus with 9 samples.

Results

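The genes described here are *Tifab* and 9 genes of the TIFA-TRAF6 pathway that its protein restrains, 10 genes of 54347 in the count table. They were taken by symbol as *Alpk1*, *Tifa*, *Tifab*, *Traf6*, *Traf2*, *Myd88*, *Irak1*, *Irak4*, *Nfkb1* and *Nfkbia*, and all 10 passed the filter on low counts that left 13082 genes for testing. *Tifab* was chosen by its loss in Hox-URE against Hox-WT, so its differences in comparisons with Hox-URE are given as a description, with no test. RNA-seq of poly-A RNA was done in 9 libraries, 3 from each of 3 mouse cell lines. Hox-WT and Hox-URE were made from c-Kit+ bone marrow progenitors of 1 wild-type mouse and 1 UREd/d mouse by immortalization with an estrogen-dependent Hox gene, and URE-AML (labelled B22) was grown out of leukemic blasts of a UREd/d mouse. The URE is an upstream enhancer of *Spi1*, which encodes the transcription factor PU.1, and UREd/d means that both copies were deleted. All lines grew in IMDM with 20% FCS, IL-3, IL-6 and SCF at 10 ng/ml each and ß-estradiol. Each genotype or stage was thus 1 line, and the sources used here do not say whether the 3 libraries of each were separate cultures, so that p-values measure only the spread between these libraries, which may be technical.

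In this pathway the kinase ALPK1 binds bacterial ADP-heptose in the cytosol and phosphorylates the adaptor TIFA, which then assembles into large complexes and brings in the ubiquitin ligases TRAF6 and TRAF2. TIFAB, a relative of TIFA with a similar forkhead-associated domain, binds TIFA and lowers TRAF6 activity. Toll-like and IL-1 receptors reach TRAF6 by another way, through MYD88 and the kinases IRAK4 and IRAK1. From TRAF6 the signal passes to the kinase TAK1 and the IKK complex, which releases NF-kB from its inhibitors. Human *TIFAB* lies in the segment of chromosome 5 that is lost in myelodysplastic syndrome with a 5q deletion, and its loss has been studied there in blood progenitors.

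Library totals ran from 20331064 to 28588718 counts. Levels are given as CPM (counts relative to library size) scaled by the TMM method, in which a count of 3, taken as the lowest level that can be read, was worth 0.104 to 0.153 CPM. *Spi1* itself had 109.9, 101.1 and 96.5 CPM in Hox-WT, between 0 and 0.0414 CPM in Hox-URE and 2.50, 5.52 and 6.35 CPM in URE-AML, so both URE-deleted lines had less of it than Hox-WT. Of 10 progenitor markers, relative to Hox-WT, 8 were called lower in Hox-URE, while URE-AML had 6 lower and 4 higher. *Kit* was detected in all 9 libraries but was 4.05-fold lower in Hox-URE and 1.80-fold lower in URE-AML. *Cd34* was at 0.0404 CPM or less in URE-AML, *Ptprc*, which encodes CD45, was at 0 in Hox-URE and at 0.0429 CPM or less in URE-AML, and *Flt3* was at 0 in URE-AML. The lines also differed in markers of blood lineages. The summed level of 10 neutrophil markers was 113 to 148 CPM in Hox-WT, 118 to 180 CPM in Hox-URE (with *Ltf* and *S100a9* at 0) and 4381 to 9400 CPM in URE-AML, where 9 of 10 had over 3 counts in every library. The Hox-URE sum was mostly *Lcn2* (110 to 174 CPM), and 7 of the 9 tested neutrophil markers were called lower there than in Hox-WT. That of 8 basophil and mast cell markers was 607 to 927, 1803 to 6367 and 43.5 to 78.5 CPM in the same order, with *Fcer1a* at 0 in both Hox lines and *Tpsb2* at 0 in Hox-WT. That of the monocyte and macrophage markers was 361 to 389, 846 to 948 and 146 to 352 CPM, and in Hox-URE it was mostly *Ccr2* (840 to 938 CPM), while 6 of the 8 tested were called lower there than in Hox-WT. In URE-AML it was mostly *Cd14* (107 to 304 CPM), with 2 of the 8 called higher and 4 lower. *Fcgr1* was at 0 in both URE-deleted lines and at 6.7 to 9.4 CPM in Hox-WT. *Klf4* was also at 0 in the URE-deleted lines, but had only 1 to 2 counts per library in Hox-WT, under the floor of 3. The part of these differences in the results that follow was not tested. In bulk RNA, fewer cells of a type and less RNA per cell cannot be told apart.

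*Tifab* (ENSMUSG00000049625, minus strand of chr13:56173704-56178885, GRCm38) showed the widest spread of levels between the lines among the 10 genes, as its choice implies. Its level was 148.9, 156.5 and 181.2 CPM in Hox-WT, 1.24, 1.28 and 1.12 CPM in Hox-URE and 15.2, 14.8 and 13.9 CPM in URE-AML. The lines were therefore ordered Hox-WT, URE-AML, Hox-URE, and no library of one line overlapped those of another. The Hox-URE values rest on 34, 31 and 22 counts, well over the floor of 3, so the transcript was reduced but not absent there. Hox-URE had 132-fold less *Tifab* than Hox-WT (log2 fold change -7.05 ± 0.14, SE, n = 3 per line), and 185 of the 13082 tested genes had a lower log2 fold change. URE-AML had 11.97-fold more than Hox-URE (3.58 ± 0.13, SE) and still fell 11.1-fold below Hox-WT (-3.47 ± 0.11, SE). The last comparison was not used to choose the gene, and passed the test (edgeR adjusted p = 3.7e-09). It shares the Hox-WT libraries with the comparison that was used, so this test is not independent of the choice. A gene was called changed where the adjusted p was below 0.05 and the fold change above 1.5.

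**Figure D1:**
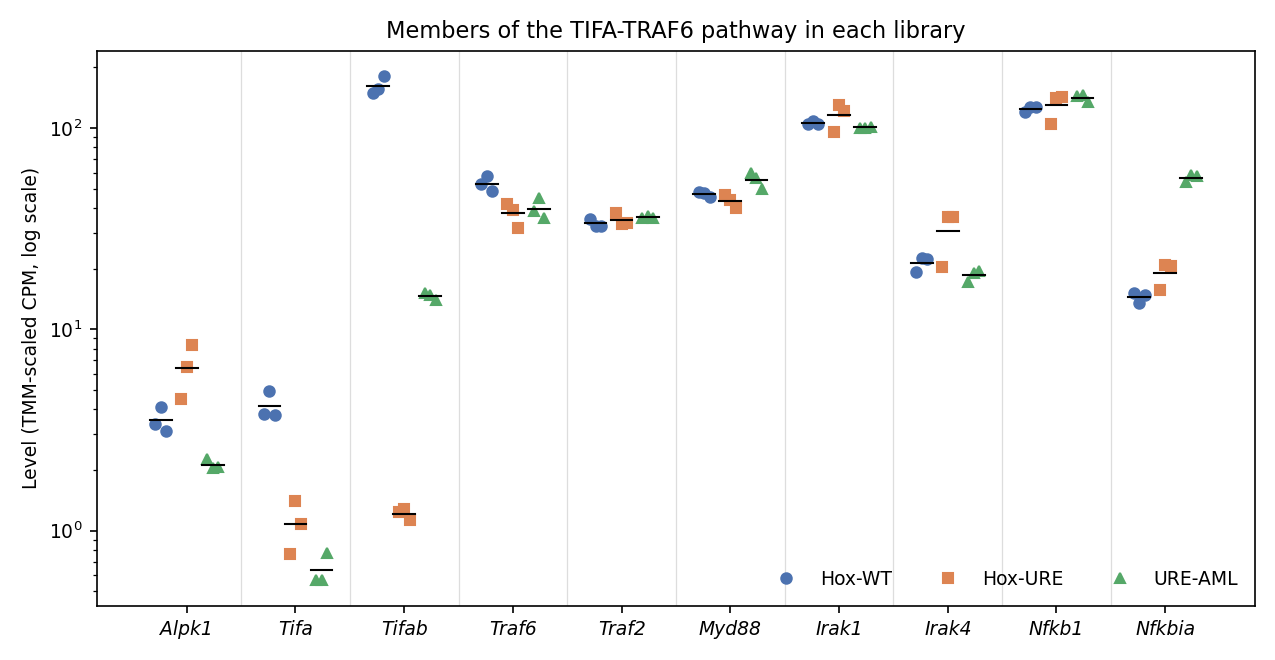
Level of the 10 genes in each library (y axis, TMM-scaled CPM on a log scale), ordered by role from sensor to NF-kB, with circles for Hox-WT, squares for Hox-URE, triangles for URE-AML and black bars for the mean of 3 libraries. *Tifab* spans from over 140 CPM to just over 1 CPM, *Tifa* and *Alpk1* stay below 10 CPM in all libraries, and the *Nfkbia* libraries of URE-AML sit at 54.1 to 58.4 CPM above all others.

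The sequence before the start of 3 members called against Hox-WT is shown because these genes, as their values show, had different orders of level over the lines. RefSeq promoters of GRCm38.p6 (250 bases before to 50 after the start) were found for 9 of the 10 members. They were searched on both strands for GAGGAA, a core that PU.1 binds, for TGTGGT, a core that RUNX factors bind, and for the NF-kB consensus, and of 32851 promoters in the table, 28.3%, 16.8% and 4.51% held them. The motifs do not overlap in the windows printed. The 250 bases before each start follow, 5′ to 3′ on the strand of the gene, with matches to the NF-kB consensus in capitals, at chr13:56178886-56179135 for *Tifab*, chr3:127780528-127780777 for *Alpk1* and chr12:55492648-55492897 for *Nfkbia*, all on the minus strand.
Tifab: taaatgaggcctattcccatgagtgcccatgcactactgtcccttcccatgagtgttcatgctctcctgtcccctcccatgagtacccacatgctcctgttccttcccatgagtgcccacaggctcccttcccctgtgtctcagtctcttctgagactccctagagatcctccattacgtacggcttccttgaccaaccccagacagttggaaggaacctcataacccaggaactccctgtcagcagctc
Alpk1: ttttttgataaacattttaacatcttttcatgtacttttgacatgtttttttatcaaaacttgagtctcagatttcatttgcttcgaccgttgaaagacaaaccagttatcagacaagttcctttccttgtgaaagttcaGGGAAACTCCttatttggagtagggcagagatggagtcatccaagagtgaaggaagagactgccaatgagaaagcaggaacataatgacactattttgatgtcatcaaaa
Nfkbia: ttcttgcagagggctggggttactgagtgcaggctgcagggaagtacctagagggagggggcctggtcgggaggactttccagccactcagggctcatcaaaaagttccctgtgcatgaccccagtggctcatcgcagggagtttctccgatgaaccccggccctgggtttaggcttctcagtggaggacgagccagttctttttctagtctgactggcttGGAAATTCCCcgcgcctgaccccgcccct
No match to any of the 3 motifs was found in the *Tifab* window printed, and the 1 match of that promoter, TGTGGT, began at position 34 after the start. *Alpk1* held an NF-kB consensus match from position -110 and *Nfkbia* one from position -29, and neither held GAGGAA or TGTGGT. Elsewhere among the members, *Traf6* held 2 GAGGAA and 1 TGTGGT, *Traf2* held 1 GAGGAA, *Irak1* held TGTGGT at both of its annotated starts, and 1 of the annotated *Tifa* starts held 2 GAGGAA and 1 NF-kB match while the other held none. *Irak4* and *Myd88* held no match. A match is a description of letters and not a bound site.

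*Tifa* (chr3:127789805-127832164, plus strand), the adaptor that TIFAB binds, was a low gene and was lower in both URE-deleted lines. It had 3.78, 4.96 and 3.73 CPM in Hox-WT, 0.764, 1.41 and 1.07 CPM in Hox-URE and 0.565, 0.571 and 0.772 CPM in URE-AML. The 3 Hox-WT libraries lay above the other 6, while the highest URE-AML library (0.772) passed the lowest Hox-URE library (0.764). *Tifa* fell 3.85-fold in Hox-URE (log2 fold change -1.94 ± 0.30, SE, edgeR adjusted p = 0.00041) and 6.50-fold in URE-AML (-2.70 ± 0.32, adjusted p = 4.6e-05). Between the URE-deleted lines the difference of -0.76 (95% confidence interval -1.49 to -0.0259) did not pass the test (adjusted p = 0.071), although it did without Hox-URE replicate 1 (-0.97, adjusted p = 0.027). The 12 to 34 counts per library behind the *Tifa* values in these lines limit that comparison.

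Because TIFAB and TIFA bind each other, their transcripts were also set against each other per kilobase of exonic length (3497 bases for *Tifab* and 3199 for *Tifa*). The ratio of *Tifab* to *Tifa* was 36.0, 28.9 and 44.4 in Hox-WT, 1.48, 0.834 and 0.958 in Hox-URE and 24.6, 23.8 and 16.5 in URE-AML. *Tifab* thus exceeded *Tifa* by a mean of 36.4 ± 7.78 (SD, n = 3) in Hox-WT and 21.6 ± 4.49 in URE-AML, whereas the 2 transcripts were at a ratio of 1.09 ± 0.34 in Hox-URE. The 3 lines did not overlap, but the ratio carries the *Tifab* levels that the choice of the gene rests on, and was not tested. In URE-AML the high ratio rested on 12 to 18 *Tifa* counts per library.

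**Figure D2:**
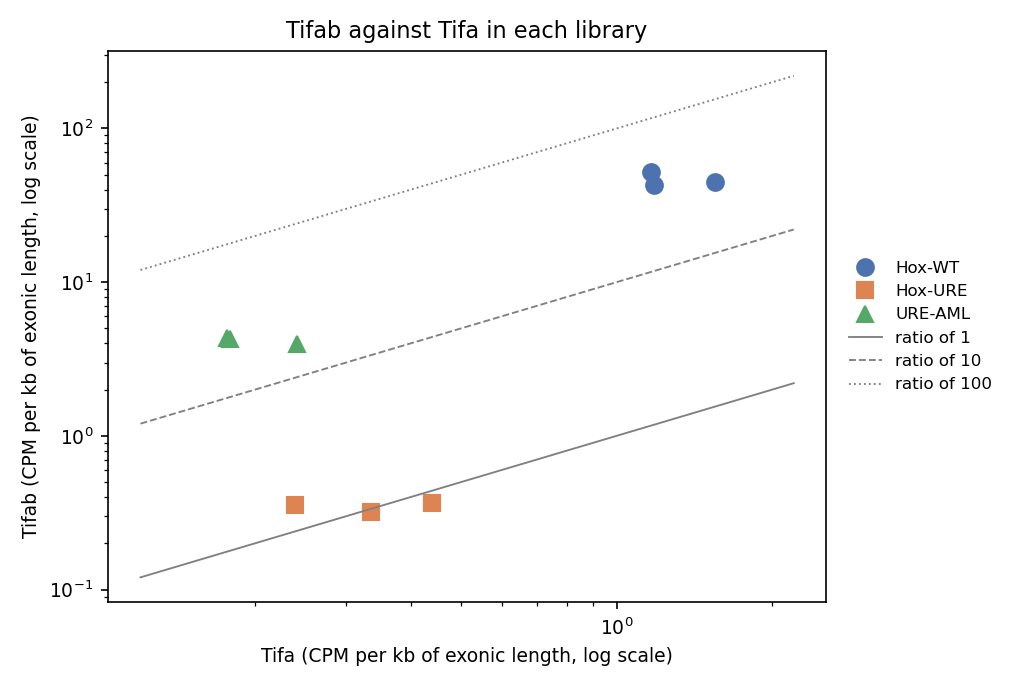
*Tifab* (y axis) against *Tifa* (x axis) in each of the 9 libraries, both in CPM per kilobase of exonic length on log scales, with grey lines at ratios of 1, 10 and 100. Hox-WT lies at the upper right between 10 and 100, URE-AML is lower in both genes at ratios of 16.5 to 24.6, and Hox-URE falls on the line of equal levels.

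*Alpk1* (chr3:127670310-127780527, minus strand), the sensor kinase upstream of TIFA, moved in opposite directions in the URE-deleted lines. Its level was 3.37, 4.11 and 3.11 CPM in Hox-WT, 4.51, 6.50 and 8.32 CPM in Hox-URE and 2.26, 2.05 and 2.06 CPM in URE-AML, without overlap of the lines. It rose 1.82-fold in Hox-URE (log2 fold change 0.86 ± 0.25, SE, edgeR adjusted p = 0.014) and fell 1.66-fold in URE-AML (-0.73 ± 0.26, adjusted p = 0.032), and URE-AML was 3.02-fold below Hox-URE (-1.60 ± 0.26, adjusted p = 0.00041). The calls against Hox-WT were fragile, and neither passed a test against a 1.5-fold change (adjusted p = 0.16 and 0.29). The rise in Hox-URE lost the test without Hox-URE replicate 3 (adjusted p = 0.066) or Hox-WT replicate 3 (adjusted p = 0.057), and the fall in URE-AML lost it without any 1 of 5 libraries, namely Hox-WT replicate 1 or 2 and each URE-AML library (adjusted p 0.055 to 0.11). The difference between the URE-deleted lines kept its call under all 19 other settings. *Alpk1* and *Tifa* are neighbours transcribed away from each other, with 9278 bases between their annotated starts, and they moved apart in Hox-URE and both fell in URE-AML.

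Counted over the members, the share called was within 1 or 2 genes of that among genes at large. In Hox-URE against Hox-WT, 2 of the 9 members other than *Tifab* were called, *Alpk1* higher and *Tifa* lower, where the test called 37.2% of all genes tested (21.3% up, 15.9% down). In URE-AML against Hox-WT, 4 of 10 were called, *Nfkbia* higher and *Tifab*, *Tifa* and *Alpk1* lower, against 43.2% of all genes tested (23.0% up, 20.2% down). The call of *Tifab* among these rests on the same Hox-WT libraries as its choice, and is not independent of it. In URE-AML against Hox-URE, 3 of 9 were called, *Nfkbia* higher and *Alpk1* and *Irak4* lower, against 42.7% of all genes tested (20.3% up, 22.4% down). The 3 comparisons share libraries pairwise and are therefore not independent. The median absolute log2 fold change of these members was 0.39, 0.32 and 0.35 in the 3 comparisons, against 0.49, 0.56 and 0.55 over all tested genes.

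The ubiquitin ligases at the centre of the pathway differed little. *Traf6* had 52.8, 57.4 and 48.4 CPM in Hox-WT, 41.9, 39.2 and 32.02 CPM in Hox-URE and 38.7, 45.1 and 35.6 CPM in URE-AML. All Hox-WT libraries were above the other 6, but the differences of -0.49 ± 0.13 (SE, edgeR adjusted p = 0.010) and -0.41 ± 0.13 (adjusted p = 0.021) on the log2 scale stayed under the fold threshold. With scaling by library size alone, the Hox-URE difference passed it (-0.59, adjusted p = 0.0050). *Traf2*, whose product also joins TNF receptor complexes, ranged from 32.6 to 37.9 CPM over the 9 libraries. The URE-AML libraries lay just above those of Hox-WT, and Hox-URE overlapped both. Its log2 differences were 0.06, 0.10 and 0.04 in the 3 comparisons, with 95% intervals that reached from -0.16 to 0.30 at their widest.

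Of the myddosome members, *Myd88* and *Irak1* were not called in any comparison and *Irak4* was called in 1. *Myd88*, the adaptor of Toll-like and IL-1 receptors, ranged from 45.6 to 48.0 CPM in Hox-WT, from 39.8 to 46.5 CPM in Hox-URE and from 49.6 to 59.7 CPM in URE-AML. The last line was highest in every library, by 0.35 ± 0.10 (SE) on the log2 scale over Hox-URE (edgeR adjusted p = 0.013), under the fold threshold, and by 0.23 over Hox-WT (adjusted p = 0.070). *Irak1*, a kinase that carries the signal from the receptor to TRAF6, lay between 95.7 and 130 CPM throughout, and its log2 differences of 0.13, -0.07 and -0.20 did not pass the test. *Irak4*, the kinase that activates IRAK1, had 19.2, 22.7 and 22.3 CPM in Hox-WT, 20.3, 36.1 and 36.3 CPM in Hox-URE and 17.2, 18.9 and 19.4 CPM in URE-AML. Hox-URE replicate 1 fell among the Hox-WT libraries while the other 2 were above them. *Irak4* fell 1.67-fold from Hox-URE to URE-AML (-0.74 ± 0.20, SE, adjusted p = 0.0095), a call lost in a test against a 1.5-fold change (adjusted p = 0.23). Its difference of 0.53 ± 0.20 between Hox-URE and Hox-WT was under the fold threshold (adjusted p = 0.047) but was called without Hox-URE replicate 1, at 0.75 (adjusted p = 0.00033).

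At the NF-kB end, *Nfkbia* and *Nfkb1* behaved differently from each other. *Nfkbia* (chr12:55489410-55492647, minus strand) encodes IkBa, the inhibitor that holds NF-kB in the cytosol and is itself a direct NF-kB target. It had 15.1, 13.5 and 14.9 CPM in Hox-WT, 15.6, 20.9 and 20.6 CPM in Hox-URE and 54.1, 58.4 and 57.7 CPM in URE-AML. The lines did not overlap, although Hox-URE replicate 1 was only just above Hox-WT. *Nfkbia* rose 3.92-fold in URE-AML over Hox-WT (log2 fold change 1.97 ± 0.13, SE, edgeR adjusted p = 5.6e-07) and was 2.98-fold higher there than in Hox-URE (1.58 ± 0.13, adjusted p = 3.0e-06), while its difference of 0.39 ± 0.13 in Hox-URE stayed under the fold threshold (adjusted p = 0.023). *Nfkb1*, which encodes the p105 precursor of the p50 subunit, ranged from 104 to 147 CPM, with log2 differences of 0.06, 0.19 and 0.13 that did not pass the test (95% intervals inside -0.21 and 0.45).

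**Figure D3:**
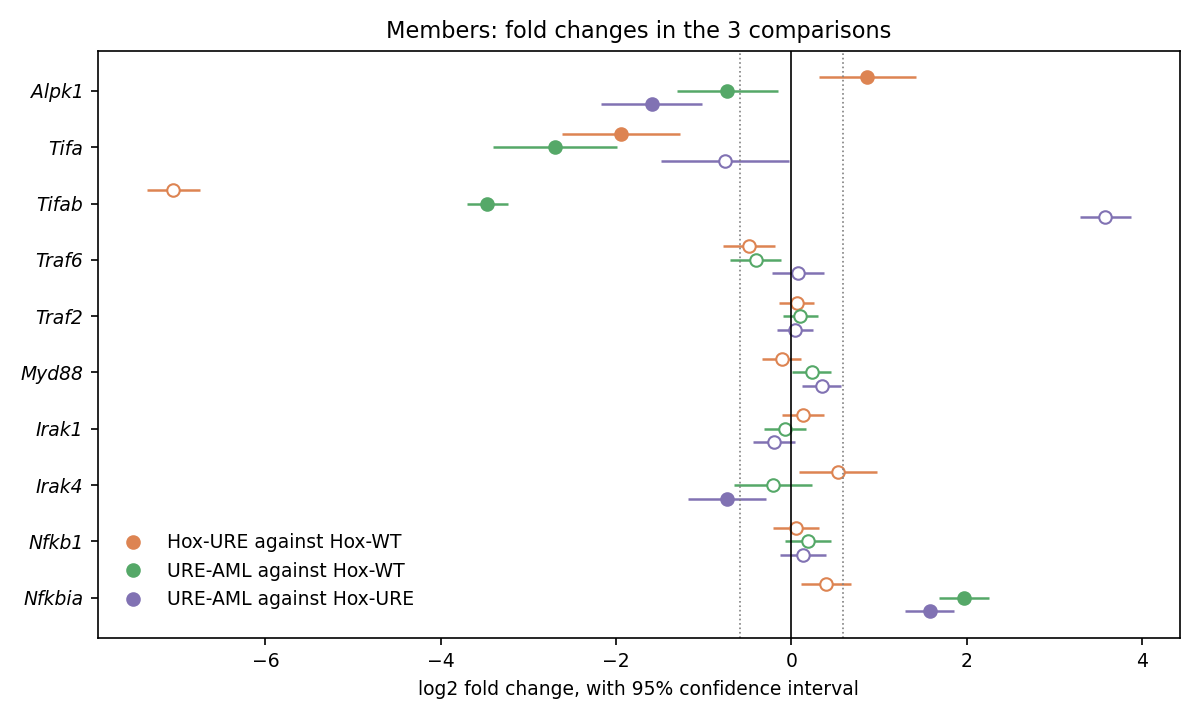
Log2 fold change of each gene (x axis, bars for the 95% confidence interval) in the 3 comparisons, with filled circles for calls, open circles for values that were not called or, for *Tifab* in comparisons with Hox-URE, not tested, and dotted lines at the 1.5-fold threshold. *Tifab* stands at -7.05, -3.47 and 3.58, *Tifa* is negative and *Nfkbia* positive in all 3, *Alpk1* lies on both sides of 0, and *Traf2*, *Irak1* and *Nfkb1* lie close to 0.

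The order of the 10 genes within a line was read per kilobase of exonic length, since longer transcripts give more counts. In Hox-WT, *Tifab* led at 46.4 ± 4.84 CPM per kb (SD, n = 3), ahead of *Irak1* at 22.4 and *Myd88* at 18.2, and *Tifa* (1.30) and *Alpk1* (0.514) were last. Only *Traf6* and *Traf2* had overlapping libraries among neighbours in that order. In Hox-URE, *Irak1* led at 24.5 ± 3.80 CPM per kb, and *Tifab* (0.347) and *Tifa* (0.338) were last with overlapping libraries. *Nfkbia* and *Nfkb1* overlapped there too, as did *Traf2* with *Irak4* and *Irak4* with *Traf6*. In URE-AML, *Nfkbia* led at 35.2 ± 1.45 CPM per kb, *Myd88* (21.4) and *Irak1* (21.3) overlapped, *Tifab* stood in seventh place at 4.19, and *Alpk1* (0.309) and *Tifa* (0.199) were last.

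The wider pathway was described over 60 genes in 5 lists, of which 56 were tested. Hox-URE differed from Hox-WT in 21 of them (11 up, 10 down, 37.5% of those tested). URE-AML differed from Hox-WT in 25 (13 up, 12 down, 44.6%) and from Hox-URE in 20 (10 up, 10 down, 35.7%). These shares were near those of all tested genes (37.2%, 43.2% and 42.7%), which are also the shares to read the counts of the single lists against. The filter asked for about 0.391 CPM in 3 libraries. *Map3k8* and *Traf3ip2* passed it through Hox-URE alone, *Traf1* through URE-AML alone and *Bcl3* through Hox-WT alone. These 4 thus had to differ, but only in comparisons with the line that carried them through. *Nfkbiz* passed only with both Hox lines. Without these 5 genes, which were set aside after their values were seen, 18, 22 and 17 of 51 were called. The median absolute log2 fold change of these genes was 0.38, 0.53 and 0.43.

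Among 9 tested myddosome and IRAK adaptor genes, 4 were called in the Hox-URE comparison with Hox-WT and 7 in that of URE-AML. *Irak2*, a kinase that sustains signalling late in the response, rose in both lines, from 1.54 to 3.22 CPM in Hox-WT to 5.11 to 8.08 CPM in Hox-URE and 15.3 to 20.6 CPM in URE-AML, and URE-AML was above Hox-URE as well (log2 fold change 1.47 ± 0.27, SE, edgeR adjusted p = 0.00094). *Irak3*, which encodes the inhibitory IRAK-M, rose 2.59-fold in Hox-URE and 1.89-fold in URE-AML. *Ticam2*, the bridging adaptor TRAM of Toll-like receptor 4, stood at 32.1 to 38.9 CPM in Hox-WT and at 0.460 to 0.911 CPM in Hox-URE, a fall by 5.82 ± 0.30 (SE) on the log2 scale (adjusted p = 2.2e-07), and had 0, 2 and 0 counts in URE-AML. *Sigirr*, an inhibitory receptor of the IL-1 receptor family, was within 128 to 152 CPM in both Hox lines and fell to 27.1 to 34.6 CPM in URE-AML (-2.31 ± 0.11, SE, adjusted p = 4.8e-08 against Hox-WT). *Tollip*, a negative regulator of IRAK1, rose 1.91-fold in URE-AML over Hox-WT.

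In the TRAF and cIAP list of 11 tested genes, 4 were called in the Hox-URE comparison with Hox-WT and 3 in that of URE-AML. Without *Traf3ip2* and *Traf1*, which passed the filter through 1 line alone, these were 3 and 1 of 9. *Traf4* fell in both, from 28.6 to 32.2 CPM in Hox-WT to 4.70 to 9.32 CPM in Hox-URE and 10.6 to 13.0 CPM in URE-AML. *Sqstm1*, which encodes the TRAF6-binding autophagy receptor p62, rose 3.50-fold in Hox-URE, where replicate 1 stood at 1226 CPM against 577 and 681 CPM in the others, and its log2 difference of -0.41 in URE-AML did not pass the test (adjusted p = 0.15). *Traf3ip2*, the adaptor of the IL-17 receptor, had 0 to 2 counts in Hox-WT, 5.46 to 8.78 CPM in Hox-URE and 0.215 to 0.571 CPM in URE-AML. *Traf3*, *Birc2* and *Birc3*, the last 2 encoding cIAP proteins, were not called in any comparison.

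The TAK1, IKK and ubiquitin list held 16 tested genes, of which 6 were called in the Hox-URE comparison with Hox-WT and 4 in that of URE-AML. Without *Map3k8*, these were 5 and 4 of 15. *Tab2*, a ubiquitin-binding partner of TAK1, fell 1.78-fold in Hox-URE and 1.72-fold in URE-AML, and *Tab3*, its relative, rose 1.69-fold and 2.19-fold, though Hox-URE replicate 3 (11.9 CPM) lay within the Hox-WT libraries (10.3 to 13.5 CPM). *Ikbkg*, which encodes the IKK scaffold NEMO, rose 1.91-fold in Hox-URE. *Ikbke*, an IKK-related kinase, rose 8.498-fold in URE-AML, with 89.1, 94.2 and 110 CPM against 8.96 to 14.0 CPM in Hox-WT (log2 fold change 3.09 ± 0.18, SE, edgeR adjusted p = 2.9e-07). The TAK1 gene *Map3k7* and the IKK kinase gene *Ikbkb* were not called in any comparison, and *Chuk*, the third IKK subunit gene, fell 1.52-fold in URE-AML against Hox-WT.

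Of 9 tested genes of NF-kB subunits and the IkB family, besides *Nfkb1* and *Nfkbia*, none was called higher in any of the 3 comparisons, while relative to Hox-WT 5 fell in Hox-URE and 6 in URE-AML, where 15.9% and 20.2% of all tested genes were called lower. Without *Bcl3* and *Nfkbiz* these were 4 and 5 of 7 genes. The median log2 fold change of all 9 was -0.75 and -1.04. Both medians include *Bcl3* and *Nfkbiz*, and without them the middle gene was *Relb*, at -0.75 and -0.72. *Rel*, the c-Rel subunit, had 5.96, 9.21 and 6.88 CPM in Hox-WT, 0.766 to 1.86 CPM in Hox-URE and 0.761 to 1.12 CPM in URE-AML, and fell by 2.52 ± 0.34 (SE, adjusted p = 0.00015) and 2.96 ± 0.35 (adjusted p = 4.4e-05) on the log2 scale. *Nfkbie*, which encodes the inhibitor IkBe, fell 1.84-fold in Hox-URE and 20.0-fold in URE-AML, opposite to *Nfkbia* in the latter. *Relb* and *Nfkbid* fell in both, at levels of 2.47 CPM or less, *Bcl3* had 0.968 to 2.10 CPM in Hox-WT and at most 0.664 CPM elsewhere, and *Rela* and *Nfkb2* were not called in any comparison.

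Among 11 tested deubiquitinases and other brakes, 2 rose in Hox-URE relative to Hox-WT, while in URE-AML 4 rose and 1 fell. *Tnfaip3*, which encodes A20, an enzyme that edits ubiquitin chains on TRAF6 and RIPK1, had 2.66, 1.89 and 0.934 CPM in Hox-WT, 9.68, 10.9 and 11.1 CPM in Hox-URE and 3.39, 3.80 and 4.72 CPM in URE-AML. It rose 5.79-fold in Hox-URE (log2 fold change 2.53 ± 0.32, SE, edgeR adjusted p = 0.00011) and 2.18-fold in URE-AML (adjusted p = 0.012). *Tax1bp1*, a partner of A20, rose 2.57-fold in Hox-URE and had a log2 difference of -0.10 in URE-AML (adjusted p = 0.66). *Usp15*, a deubiquitinase that TIFAB binds, ranged from 79.3 to 114 CPM and was not called in any comparison.

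The list of 30 genes known as NF-kB targets in myeloid cells gave 17 tested genes. Set against Hox-WT, 12 were called in Hox-URE (7 up, 5 down, 70.6%) and 15 in URE-AML (10 up, 5 down, 88.2%), and 12 differed between the URE-deleted lines (8 up, 4 down in URE-AML, 70.6%). These shares were above those of all tested genes, but 13 genes of the list were too low to be tested. Another 6 of the 17 passed the filter through 1 line alone (*Ccl4*, *Cxcl10*, *Tnf* and *Vcam1* through URE-AML, *Ccl2* and *Icam1* through Hox-WT). These 6 thus had to differ in comparisons with that line. Without these 6, the calls numbered 8 (7 up, 1 down), 9 (6 up, 3 down) and 8 (4 up, 4 down) of 11. Most calls among these 11 were thus upward in Hox-URE, while in URE-AML they went both ways. *Ccl3*, *Ier3*, *Bcl2l1*, *Csf1* and *Lcn2* rose in both URE-deleted lines. *Lcn2*, a granule protein gene that is also in the neutrophil list, went from 6.44 to 9.13 CPM in Hox-WT to 110 to 174 CPM in Hox-URE and 263 to 363 CPM in URE-AML. *Icam1*, which encodes an adhesion molecule, had 12.4, 14.4 and 14.3 CPM in Hox-WT, was at 0 in all Hox-URE libraries, which puts it at least 106-fold lower against a floor of 3 counts per library, and had 1 count in 1 URE-AML library. *Vcam1*, another adhesion molecule gene, had 188, 381 and 492 CPM in URE-AML and 0 to 2 counts in each of the other libraries. *Cxcl10*, a chemokine gene that interferon also induces, had 4 to 14 counts in Hox-WT and 17.8, 10.7 and 10.2 CPM in URE-AML, and had 0 to 4 counts in Hox-URE. *Ptgs2*, the inducible prostaglandin synthase, rose 4.55-fold in Hox-URE and fell 10.5-fold in URE-AML against Hox-WT. Its Hox-URE libraries were spread over 23.9, 11.4 and 7.05 CPM, against 1.94 to 4.12 CPM in Hox-WT. *Il6* had 3.90 to 5.11 CPM in Hox-WT, 2.47 to 3.48 CPM in Hox-URE and 1 to 5 counts in URE-AML.

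**Figure D4:**
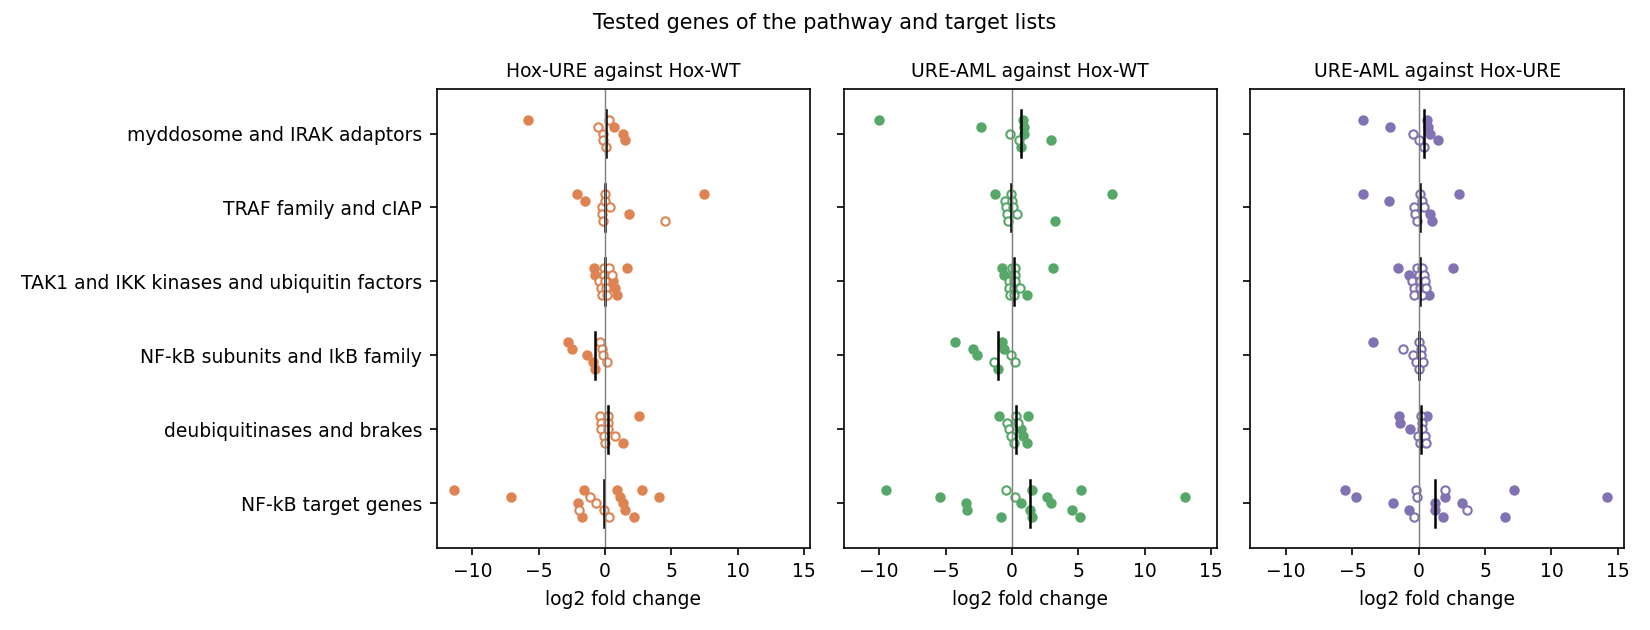
Log2 fold change (x axis) of each tested gene in the 5 pathway lists and the target list (rows, points offset vertically for legibility) in the 3 comparisons, with filled circles for calls and black bars for the list median. Pathway genes lie on both sides of 0, and more of them were not called than called in each comparison. The NF-kB subunit and IkB list has its medians at -0.75 and -1.04 against Hox-WT, with *Bcl3* and *Nfkbiz* included. Target genes spread widely to both sides. Fitted values of genes at or near 0 counts in a line, such as *Icam1* and *Vcam1*, depend on the prior count of the fit.

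The genes around *Tifab* were examined next, within 500 kb of its start in GENCODE M21. Of 25 annotated genes there, 9 were tested, and they did not share one pattern. *Macroh2a1*, a histone variant gene whose start lies 42.5 kb from that of *Tifab*, came closest, with 548, 722 and 675 CPM in Hox-WT, 194, 238 and 246 CPM in Hox-URE and 443, 410 and 398 CPM in URE-AML. It fell 2.87-fold in Hox-URE (log2 fold change -1.52 ± 0.13, SE, edgeR adjusted p = 6.9e-06) and 1.56-fold in URE-AML (-0.64 ± 0.13, adjusted p = 0.0016), the same order of lines as *Tifab* on a smaller scale. *Tgfbi*, a matrix protein gene on the other side, had its lowest level in URE-AML instead, at 0.605 to 1.03 CPM against 36.7 to 53.8 CPM in Hox-WT and 14.9 to 28.8 CPM in Hox-URE. *Pcbd2* rose 1.91-fold in Hox-URE and 2.92-fold in URE-AML, and *Txndc15* rose 2.27-fold in URE-AML. *B230219D22Rik* fell 1.51-fold in URE-AML and had a log2 difference of 0.33 in Hox-URE, under the fold threshold (edgeR adjusted p = 0.031). *Cxcl14*, a chemokine gene 118 kb before the *Tifab* start, was at 0 in both Hox lines and had 20.95, 4.66 and 4.55 CPM in URE-AML. The URE-AML mean was at least 93.3-fold above Hox-WT, a bound that rests mostly on replicate 1. *Gm47071*, an RNA annotated on the strand opposite to *Macroh2a1* and *Pitx1*, both of which it overlaps, had 12.1 to 23.3 CPM in URE-AML and 0 to 0.357 CPM in the Hox lines. The strand setting of the quantification is not given in the sources used here. In all, 6 of the 9 were called in the Hox-URE comparison with Hox-WT and 9 of 9 in that of URE-AML, where 37.2% and 43.2% of all tested genes were called, but 4 of them (*Cxcl14*, *Gm47071*, *Lect2* and *Fbxl21*) passed the filter through URE-AML alone. Without these 4, the calls numbered 3 and 5 of 5.

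**Figure D5:**
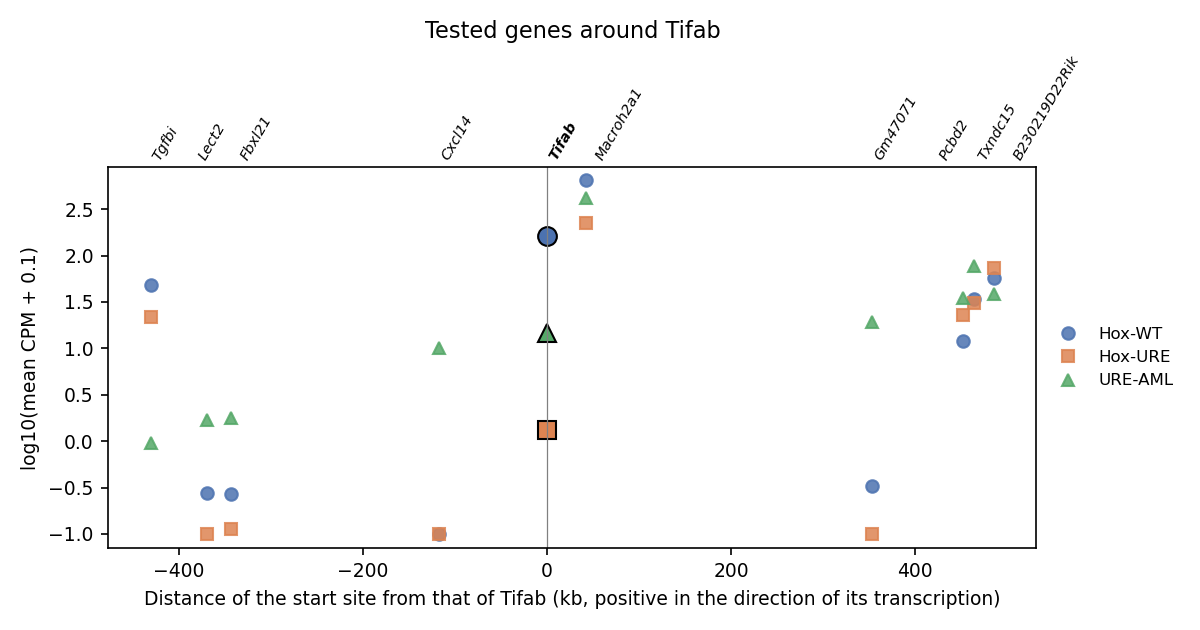
Mean level of *Tifab* (large outlined symbols at 0) and the 9 tested genes within 500 kb (y axis, log10 of the mean CPM of 3 libraries plus 0.1) against the distance between start sites in kb (x axis, positive in the direction of *Tifab* transcription). *Macroh2a1* has the same order of lines as *Tifab* over a smaller range, *Tgfbi* is lowest in URE-AML, and the other genes are ordered differently.

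The genes whose pattern was most like that of *Tifab* were found by the root mean square distance between centred log2 CPM values over the 9 libraries, among all tested genes. This distance had a median of 2.90 over all genes, and 21 genes were within 1. The nearest was *Camk1*, a calcium-dependent protein kinase gene, at 0.213 (Pearson r = 0.998 over the 9 libraries, which fall into 3 lines and share the line differences). *Camk1* had 37.2, 42.1 and 36.6 CPM in Hox-WT, 0.255, 0.331 and 0.357 CPM in Hox-URE and 3.83, 3.90 and 3.82 CPM in URE-AML. It was followed by *Zfp987*, *Tiam1*, *Igsf6*, *Apobr*, *Gatm*, *Itgam*, *Spon1*, *Sdc1* and *Gcnt2*. *Tiam1*, a Rac exchange factor gene, had 132 to 140 CPM in Hox-WT, 2.62 to 3.27 CPM in Hox-URE and 23.1 to 28.9 CPM in URE-AML, and *Itgam*, which encodes the integrin CD11b, was at 0 in Hox-URE and at 0.686 to 2.96 CPM in URE-AML. These genes were picked for their likeness and their levels are given with no test.

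Since *TIFAB* is among the genes lost with the human 5q deletion, 15 mouse counterparts of genes listed for human 5q deletions were looked up, and all were tested. How close these genes lie to *TIFAB* in human was not examined. Of these, 7 were called in Hox-URE (4 up, 3 down, 46.7%) and 6 in URE-AML (3 up, 3 down, 40.0%), both relative to Hox-WT and near the 37.2% and 43.2% of all tested genes. *Npm1*, a nucleolar protein gene, fell 2.16-fold and 2.11-fold in these lines, and *Ctnna1*, the alpha-catenin gene, rose 2.2-fold and 3.06-fold. *Rps14*, a ribosomal protein gene, fell 1.62-fold in URE-AML and had a log2 difference of 0.24 in Hox-URE that did not pass the test (adjusted p = 0.074). *Diaph1*, an actin-nucleating formin gene, rose 2.05-fold in Hox-URE, with a log2 difference of 0.02 in URE-AML. *Tgfbi*, described above as a neighbour of *Tifab*, also belongs to this list and fell in both lines. The genes called thus went both ways.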

How the data were processed

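Stranded RNA-seq libraries (poly-A selected, 3 for each of 3 mouse lines) were analysed. Quantification by the authors used Salmon (GRCm38, per the submitters' processing notes) with tximport for gene totals, and the deposited values are estimated counts, given as whole numbers. The transcriptome release and any scaling by length are not given in the sources used here. Of 54347 identifiers, 54094 were found in GENCODE M21, from which positions and exonic lengths were taken. Genes passing filterByExpr of edgeR 4.0.16 (minimum count 10) were kept, 13082 in all. All 9 libraries were fitted together with line as a factor, TMM factors (0.938 to 1.036) and the quasi-likelihood test, in R 4.3.3, with Benjamini-Hochberg adjustment over all tested genes. A call needed an adjusted p below 0.05 and a fold change above 1.5, the thresholds of the study, which used DESeq2 (1.42.0 here, as an alternative). No test was made for *Tifab* where Hox-URE entered. The 10 genes and all lists were chosen with earlier results of these data known. Genes were named as the members, the called or key genes of each list, the tested neighbours and the 10 genes most like *Tifab*. A line at 0 in all libraries was set to a floor of 3 counts per library, which covers counting error only. The procedure was tested on simulated data. Library totals of 20331064 to 28588718 counts limit genes near the floor, and alternatives covered scaling, filters, thresholds, tool, libraries left out and a replicate block.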

Additional observations from a re-analysis of the deposited data

Results flagged for a closer look

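Among the members, the pathway, target and 5q lists and the neighbours of *Tifab*, some genes were called on opposite sides of Hox-WT in the 2 URE-deleted lines, and the difference between these lines was itself tested. The lists of blood lineage markers, which held other such genes, were not counted here. Both comparisons share the Hox-WT libraries. *Alpk1* was higher in Hox-URE and lower in URE-AML, with a difference of -1.60 on the log2 scale (edgeR adjusted p = 0.00041), although its calls against Hox-WT were lost without single libraries. Among NF-kB target genes, *Ptgs2* (-5.58, edgeR adjusted p = 2.2e-05) and *Clec4e* (-1.95, adjusted p = 7.7e-06) went the same ways.

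Another 5 genes had fitted values on opposite sides, but too few counts in the Hox lines for their order there to be read. *Tnf* differed by 3.27, *Cxcl10* by 7.18 and *Fbxl21* by 6.46 on the log2 scale between URE-AML and Hox-URE. *Gm47071* exceeded its floor in Hox-URE, where all libraries were at 0, by at least 149-fold in URE-AML, and *Lect2* by at least 12.3-fold. All 5 passed the filter on low counts through URE-AML alone and had to differ, so no test is given for them. No explanation of these differences was tested.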

How the results depend on the processing

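Of 566 alternative values of member fold changes over 19 settings, 540 kept direction and side of the threshold, 8 reversed, 10 lost a call and 8 gained one. The reversals were all of values not called. With library size alone, which moved the median of all genes by -0.083 for Hox-URE relative to Hox-WT and by 0.109 for URE-AML relative to Hox-URE, *Traf2* and *Nfkb1* were at -0.047 and -0.054 in the former. Leaving out 1 library gave -0.011 to 0.094 for *Traf2* and -0.030 to 0.18 for *Nfkb1* there (-0.020 without Hox-URE replicate 2), and -0.031 to 0.15 for *Traf6* (-0.021 without URE-AML replicate 2) and -0.0055 to 0.21 for *Nfkb1* in URE-AML against Hox-URE. Members called in Hox-URE against Hox-WT numbered 5 with no fold threshold, 1 in a test against a 1.5-fold change and 1 to 3 with 1 library left out, falling to 1 without Hox-WT replicate 3 or Hox-URE replicate 3. Pathway genes called in URE-AML numbered 16 against Hox-WT in the test against 1.5-fold, and against Hox-URE 34 with no fold threshold and 12 in that test. With at least 10 counts in every library, target genes called numbered 7, 7 and 6 in Hox-URE against Hox-WT, URE-AML against Hox-WT and URE-AML against Hox-URE, and neighbours of *Tifab* 3, 5 and 5, since fewer genes were tested. Neighbours numbered 3 in Hox-URE against Hox-WT with only those 6 libraries, and the neighbour alternatives were chosen after seeing the data.

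With the replicate number as a block (replicate block), 2, 4 and 3 members were called in the same order, as without it, and 20, 24 and 19 pathway genes. Same-numbered libraries correlated at 0.010 to 0.271 after removing line means, over 0.1 in 2 of 9 pairs, and others at -0.211 to 0.066, and in 17 of 18 cases a library correlated best with its own number, a hint from the data only. Depth limited *Tifa*, *Alpk1* and the Hox-URE level of *Tifab*.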
